A study of Homo sapiens with 6 samples.

Results

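The genes described here encode 10 components of the ER-associated degradation (ERAD) machinery, the system that removes misfolded proteins from the endoplasmic reticulum (ER). They were taken by symbol: the ubiquitin ligase SYVN1, its partners SEL1L and HERPUD1, the membrane proteins DERL1 and DERL2, the lectin OS9, the mannosidase family EDEM1, EDEM2 and EDEM3, and the co-chaperone DNAJB9. All 10 were found among the 59609 gene names of the files, and all 10 were among the 16600 genes tested. Each member lay above 1 FPKM (fragments scaled to transcript length and to the mapped fragments of the library) in every library, so no member entered through 1 medium alone.

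RNA was sequenced from 95D cells, an unmodified human lung cancer line labelled WT. All cells were plated in complete DMEM for 24 h. The control libraries are labelled as 48 h in control DMEM, a medium described with 10% fetal bovine serum, while the deprived cells spent 48 h in DMEM lacking either glucose or glutamine, with 10% dialyzed serum. No dialysis is stated for the control serum, so removal of the nutrient and dialysis of the serum cannot be told apart in either comparison with control. The comparisons rest on 2 control libraries, 2 libraries without glucose and 1 library without glutamine. The labels do not state whether replicates are independent cultures; the p-values refer to the variation among these libraries, and that variation could be purely technical.

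In ERAD, a misfolded protein of the ER lumen is recognised by chaperones and lectins, passed through the membrane by a channel around the ligase HRD1 (the product of SYVN1), tagged with ubiquitin, pulled out by the ATPase VCP and destroyed by the proteasome in the cytosol. Several ERAD genes are known targets of the unfolded protein response (UPR), the transcription programme led by XBP1, ATF6 and ATF4 when folding in the ER is disturbed. Glucose feeds the sugar chains added to ER proteins, and glutamine donates nitrogen for the amino sugars in those chains.

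Depth inferred from the values was 34530000 to 48930000 reads per library. Reads per member were not counted but estimated from FPKM, this depth and the total exon length in GENCODE release 29. By that estimate the lowest member in a library had 489 reads (counting error 4.52%) and the highest had 5734 (1.32%). The submitters' annotation is not given, so the lengths behind the FPKM may differ and these numbers are uncertain. Pearson's r between log2 levels across genes, which are not independent replicates, was 0.991 for the control pair and 0.985 for the pair without glucose. Of the defining markers of epithelial cells, KRT18 (16 to 21.7 FPKM) and KRT8 (4.15 to 5.51) were present, KRT19 was at 0 in every library, and KRT7, EPCAM and CDH1 stayed at or below 0.25. The mesenchymal filament gene VIM was at 77.7 and 76.2 in control medium, 135 and 150 without glucose and 85.2 without glutamine, and the mesenchymal list, with all 3 genes above 1 FPKM, summed to 87.8 and 86.5, 147 and 162, and 98.4 in the same order. No marker of immune cells (0 of 5), endothelium (0 of 3) or red cells (0 of 2) reached 1 FPKM, and of 5 alveolar markers NKX2-1 alone did. Of 4 genes of plasma and other secretory cells, in which ERAD genes run high, IGKC was at 0, JCHAIN at most 0.0408 and MZB1 at most 0.205. The remaining one, SDC1, gave 7.28 and 6.22 in control medium, 3.29 and 3.61 without glucose and 5.81 without glutamine. The neuroendocrine list summed to 5.87 and 5.32 FPKM in control medium, 8.42 and 9.21 without glucose and 8.75 without glutamine, through SYP and NCAM1, with CHGA at most 0.27. The part that these shifts in VIM, SDC1 and the neuroendocrine genes have in the results was not tested.

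Without glucose, 5 of the 10 members rose and 2 fell. HERPUD1, SEL1L, SYVN1, DNAJB9 and OS9 were higher than in control medium, EDEM2 and EDEM3 were lower, and EDEM1, DERL1 and DERL2 did not pass the test. Without glutamine the set divided differently, with SYVN1, HERPUD1 and EDEM1 higher and EDEM3, DERL2, DNAJB9 and OS9 lower. Of 4 scalings run, those 4 lower calls were made only under the one used here, and EDEM3, OS9 and DNAJB9 turned positive when libraries were scaled to the same total. The plot of member levels shows each library.

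**Figure D1:**
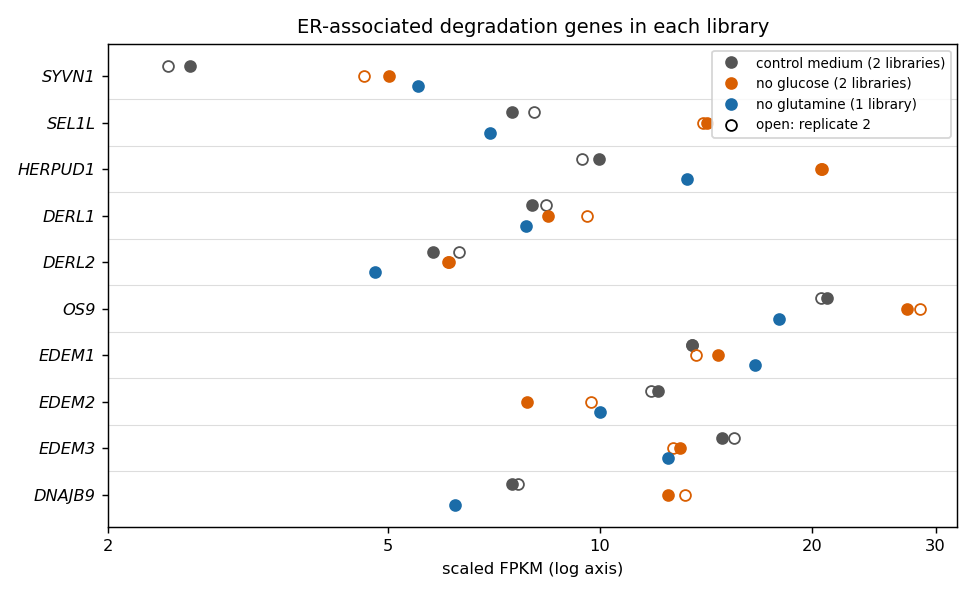
Level of each of the 10 genes in each library, in scaled FPKM on a log axis; filled points are replicate 1, open points replicate 2 (the 2 points without glucose coincide for HERPUD1 and DERL2). SYVN1, SEL1L, HERPUD1, OS9 and DNAJB9, all called higher, sit to the right of both control points without glucose. EDEM1 and DERL1 also do so, by a smaller distance, and were not called. Without glutamine SYVN1, HERPUD1 and EDEM1 sit to the right of both control points. The share of all genes that separate in this way was not computed. The leftward shift of OS9 and DNAJB9 without glutamine turned positive when libraries were scaled to the same total.

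These counts stand beside widespread change. In the comparison without glucose, 26.5% of the 16600 genes were called higher and 28.1% lower (limma, adjusted p under 0.05), against 5 and 2 of the 10 members. The members' median log2 fold change was 0.26, and that of all genes 0.03. Without glutamine, 24.7% of genes were called higher and 26.2% lower, against 3 and 4 members, with medians of -0.17 for the members and 0.05 for all genes. Among the 6544 genes with a mean of 5 to 30 FPKM, a range that holds 9 of the members, the medians were -0.07 without glucose and -0.15 without glutamine. In that range 26.3% were higher and 41.1% lower without glucose, and 18.2% were higher and 45.7% lower without glutamine.

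Scaling shifts these figures. Higher genes made up 48.6% of all calls without glucose, and 54.2%, 68% and 60% with values as deposited, scaled to the same total or scaled to the upper quartile. Without glutamine they made up 48.5%, and 67.5%, 91.1% and 68.2% in the same order. The all-gene median without glutamine moved from 0.05 to 0.17, 0.30 and 0.18, and that of the members from -0.17 to -0.02, 0.13 and -0.00, below the all-gene median under each of these scalings. Without glucose the members' median was 0.30, 0.37 and 0.35 in the same order, above the all-gene medians of 0.06, 0.11 and 0.10. Leaving out control replicate 1 or 2 cut the count of all genes called from 9077 to 5688 and 5863 without glucose, and from 8462 to 5630 and 5486 without glutamine. The count of members lower fell from 2 to 1 and 0 without glucose, and from 4 to 2 and 0 without glutamine.

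The sequence upstream of the RefSeq start is given for the 5 genes that rose without glucose. It is shown because UPR factors are known to act through short elements close to the gene start. RefSeq windows of GRCh38.p14, from 250 bases before to 50 bases after the start, were held for 9 of the 10 members (not DERL1). Each was searched on both strands for 6 elements: ERSE (CCAAT and CCACG parted by any 9 bases), ERSE-II (ATTGG, any base, CCACG), the UPRE core TGACGTGG, the XBP1 core CCACGT, the C/EBP-ATF element (TGATG, any base, AAT) and the AARE-like core TGATGCAA, which belongs to the amino acid response. The elements overlap in part: the UPRE core holds the reverse complement of the XBP1 core, ERSE and ERSE-II end in CCACG, and the AARE-like core can coincide with the C/EBP-ATF element. The 250 bases before the start are given 5′ to 3′ on the gene's strand, in lower case with matches in capitals. They lie at chr16:56931892-56932141 (plus strand) for HERPUD1, chr11:65134520-65134769 (minus) for SYVN1, chr7:108569624-108569873 (plus) for DNAJB9, chr12:57693882-57694131 (plus) for OS9 and chr14:81533854-81534103 (minus) for SEL1L.
HERPUD1: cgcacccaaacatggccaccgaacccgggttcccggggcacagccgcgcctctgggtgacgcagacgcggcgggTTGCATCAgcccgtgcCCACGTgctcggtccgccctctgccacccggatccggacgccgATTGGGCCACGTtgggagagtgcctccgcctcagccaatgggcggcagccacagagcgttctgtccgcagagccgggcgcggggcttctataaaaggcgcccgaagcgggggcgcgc
SYVN1: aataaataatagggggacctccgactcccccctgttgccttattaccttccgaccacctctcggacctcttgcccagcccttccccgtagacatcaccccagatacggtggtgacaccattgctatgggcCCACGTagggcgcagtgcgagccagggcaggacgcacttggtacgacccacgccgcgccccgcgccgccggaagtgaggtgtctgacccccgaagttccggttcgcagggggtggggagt
DNAJB9: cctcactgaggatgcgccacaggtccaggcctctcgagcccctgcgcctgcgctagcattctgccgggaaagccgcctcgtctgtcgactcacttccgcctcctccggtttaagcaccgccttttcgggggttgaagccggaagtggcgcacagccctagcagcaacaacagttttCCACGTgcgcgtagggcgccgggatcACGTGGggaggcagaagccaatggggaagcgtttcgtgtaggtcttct
OS9: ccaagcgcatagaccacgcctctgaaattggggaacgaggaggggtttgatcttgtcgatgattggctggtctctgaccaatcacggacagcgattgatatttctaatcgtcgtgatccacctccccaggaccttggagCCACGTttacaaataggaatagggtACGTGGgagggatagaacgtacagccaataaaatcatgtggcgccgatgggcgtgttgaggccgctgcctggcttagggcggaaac
SEL1L: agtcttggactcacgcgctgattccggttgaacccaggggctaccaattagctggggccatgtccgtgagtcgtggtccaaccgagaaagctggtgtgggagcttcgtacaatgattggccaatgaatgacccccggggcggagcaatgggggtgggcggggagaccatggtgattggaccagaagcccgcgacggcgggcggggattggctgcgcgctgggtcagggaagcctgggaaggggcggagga

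CCACGT or its reverse complement was present in 5 of the 9 members with a window: HERPUD1, OS9 and DNAJB9 with 2 matches each, SYVN1 and EDEM3 with 1. Among all 35116 promoter windows 9.72% held it. HERPUD1 also carried ERSE-II from base -117 to -107, which overlaps its CCACGT at -111 to -106; 0.0541% of all windows held ERSE-II. An AARE-like core on the minus strand lay at -176 to -169 of HERPUD1, an element held by 0.866% of windows. ERSE (0.0769% of windows), the UPRE core (0.729%) and the C/EBP-ATF element (0.991%) matched in no member window, while HSPA5, the gene of the ER chaperone BiP, held ERSE at -66 to -48. SEL1L, EDEM1, EDEM2 and DERL2 had no match for any of the 6. These are letter matches, not measured binding sites, and they hold for the RefSeq start used. For DNAJB9 and DERL2 the 250 bases before that start lie wholly inside the annotated gene (GENCODE release 29). For OS9 they lie mostly inside, and for the other members with a window in part. Other start sites were not searched. HERPUD1, SYVN1, OS9 and DNAJB9, which have CCACGT and rose without glucose, stand beside EDEM3, which has it and fell, and SEL1L, which rose and lacks it.

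**Figure D2:**
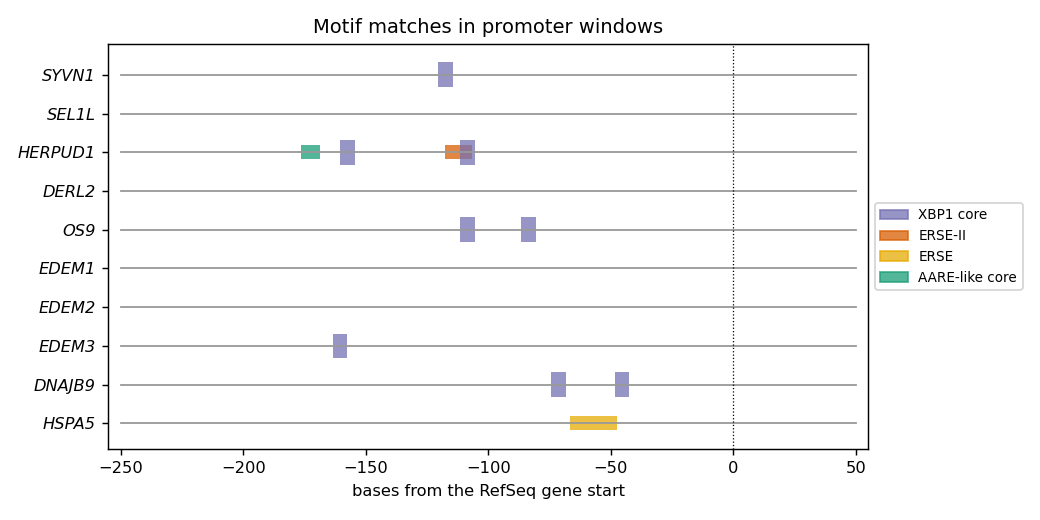
Matches to the searched elements in the RefSeq windows of 9 members and of HSPA5; the horizontal axis is the distance in bases from the RefSeq gene start (dotted line), and each box spans 1 match. Matches in members lie between base -176 and base -43, and 4 member windows are empty.

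The ligase core consists of SYVN1, which adds ubiquitin, SEL1L, which holds the ligase complex together and links it to lumenal lectins, and HERPUD1, a membrane protein that recruits other components to the ligase. HERPUD1 lies on chromosome 16 (56932048 to 56944863, plus strand, hg38), SEL1L on chromosome 14 (81471549 to 81533861, minus strand) and SYVN1 on chromosome 11 (65121780 to 65134533, minus strand). HERPUD1 was at 9.97 and 9.44 scaled FPKM in control medium, 20.6 and 20.7 without glucose and 13.3 without glutamine. The media do not overlap: the libraries without glucose stand highest and the library without glutamine lies between. On the log2(FPKM + 1) scale, which understates the change of low genes, HERPUD1 rose by 1.02 ± 0.04 (SE; n = 2 and 2 libraries) without glucose, 2.02-fold (limma adjusted p = 6.34e-06), rank 265 of 16600 genes. Without glutamine it rose by 0.42 ± 0.05 (limma adjusted p = 0.000541; n = 2 and 1), and by 0.57, 0.71 and 0.58 with values as deposited, scaled to the same total or scaled to the upper quartile. In bulk RNA, fewer cells of a type and less RNA per cell cannot be told apart.

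SEL1L was at 7.51 and 8.05 FPKM in control medium, 14.2 and 14 without glucose and 6.98 without glutamine. Both libraries without glucose lie far above the others, and the library without glutamine lies below both controls. The rise without glucose was 0.79 ± 0.05 (limma adjusted p = 1.47e-05), a 1.72-fold change on that scale. The difference without glutamine was -0.14 ± 0.06 with a 95% interval of -0.27 to -0.01, which did not pass the test after adjustment (limma adjusted p = 0.0762), and it was 0.01, 0.14 and 0.02 with values as deposited, scaled to the same total or scaled to the upper quartile.

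SYVN1 gave 2.61 and 2.43 FPKM in control medium, 5.01 and 4.62 without glucose and 5.52 without glutamine. Both deprivations stand above control with no overlap, and the highest library is the one without glutamine. SYVN1 rose by 0.72 ± 0.06 without glucose (limma adjusted p = 6.29e-05) and by 0.89 ± 0.08 without glutamine (limma adjusted p = 8.7e-05).

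The calls for HERPUD1, SEL1L and SYVN1 without glucose, and for HERPUD1 and SYVN1 without glutamine, held under every alternative that could be fitted, with adjusted p-values of at most 0.0207 (limma). SYVN1 has no value under the filter of a mean of at least 5 FPKM. In the annotation (GENCODE release 29), 398 exon bases of SYVN1, 7.24% of its exon length, are shared with FAU on the same strand, and 356 bases (6.48%) with MRPL49 on the opposite strand. FAU encodes a ubiquitin-like protein fused to a ribosomal protein and is far more abundant, so reads in the shared bases make the SYVN1 level uncertain. FAU was at 181 and 171 FPKM in control medium, 155 and 170 without glucose and 116 without glutamine. It moved opposite to SYVN1 in the last, a fall of 0.59 ± 0.07 (limma adjusted p = 0.000263). MRPL49 as deposited was at 32.1 and 32.6 FPKM in control medium, 19 and 20.1 without glucose and 25.2 without glutamine.

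Ratios within a library do not depend on scaling. The FPKM ratio of SYVN1 to SEL1L, ligase to scaffold, was 0.348 and 0.302 in control medium, 0.352 and 0.329 without glucose and 0.79 without glutamine. The ratios without glucose lie next to the control values, and the one without glutamine stands apart from the other 4 libraries. HERPUD1 to SEL1L was 1.33 and 1.17 in control medium, 1.45 and 1.47 without glucose and 1.9 without glutamine. Here both deprivations lie above control, the glutamine-free library farthest.

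DERL1 and DERL2 are inactive relatives of rhomboid proteases that line the path of the substrate through the membrane. DERL1 was at 8.01 and 8.38 FPKM in control medium, 8.43 and 9.58 without glucose and 7.84 without glutamine. The groups barely separate, and replicate 2 without glucose stands highest. DERL1 passed the test in neither deprivation: 0.12 ± 0.06 without glucose (95% interval -0.02 to 0.26; limma adjusted p = 0.134) and -0.06 ± 0.08 without glutamine (-0.23 to 0.12; limma adjusted p = 0.56). Without replicate 1 of glucose deprivation the first became 0.20 (limma adjusted p = 0.03). The call was also made with values as deposited (0.16, limma adjusted p = 0.0477) and with upper-quartile scaling (0.20, limma adjusted p = 0.0242).

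DERL2 was at 5.79 and 6.31 FPKM in control medium, 6.08 and 6.11 without glucose and 4.79 without glutamine. The values without glucose lie between the controls, and the library without glutamine is lowest. DERL2 differed by 0.01 ± 0.05 without glucose (95% interval -0.11 to 0.14; limma adjusted p = 0.88), and by -0.04 when control replicate 1 was left out. It fell by 0.28 ± 0.07 without glutamine (limma adjusted p = 0.00871). That call was lost without control replicate 2 (-0.23, limma adjusted p = 0.072) and under the other scalings, where the value was -0.14, -0.01 and -0.13.

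DERL3, the third Derlin and no member of the set, is included because its pattern contrasts with both. It was at 1.27 and 1.34 FPKM in control medium, 6.71 and 6.14 without glucose and 1.6 without glutamine, so the glucose-free libraries stand apart. DERL3 rose by 1.69 ± 0.07 without glucose (limma adjusted p = 5.49e-06) and differed by 0.17 ± 0.09 without glutamine (limma adjusted p = 0.128). The ratio of DERL3 to DERL2 was 0.22 and 0.212 in control medium, 1.1 and 1 without glucose and 0.333 without glutamine. In glucose-free medium the Derlin that was scarcest in control medium reached the level of DERL2.

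Recognition of glycoproteins rests on the EDEM proteins, which trim mannose from N-glycans, and on OS9, the lectin that binds the trimmed chain and delivers the protein to SEL1L. OS9 was the most abundant member in all 3 media: 21 and 20.6 FPKM in control medium, 27.3 and 28.5 without glucose and 18 without glutamine. The media do not overlap, with glucose-free libraries highest and the glutamine-free library lowest. OS9 rose by 0.41 ± 0.04 without glucose (limma adjusted p = 0.000159), 1.32-fold. It fell by 0.20 ± 0.05 without glutamine (limma adjusted p = 0.0153), a call lost without control replicate 1 (limma adjusted p = 0.106) or 2 (limma adjusted p = 0.0818), and the value was 0.11 with scaling to the same total. Its ratio to SEL1L was 2.79 and 2.56 in control medium, 1.92 and 2.03 without glucose and 2.58 without glutamine, lowest in the glucose-free libraries.

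The 3 EDEM genes did not share a pattern of calls. EDEM1 was at 13.5 and 13.5 FPKM in control medium, 14.7 and 13.7 without glucose and 16.6 without glutamine, the highest value being the last. It differed by 0.06 ± 0.05 without glucose (95% interval -0.04 to 0.17; limma adjusted p = 0.275) and rose by 0.27 ± 0.06 without glutamine (limma adjusted p = 0.00489). The latter call was lost by a small margin without control replicate 1 (limma adjusted p = 0.0528), without control replicate 2 (0.054) or with no filter on low values (0.0545). Under the other scalings, as deposited, same total and upper quartile, the rise was 0.43, 0.57 and 0.44, called in each. Under upper-quartile scaling EDEM1 also passed without glucose (0.15, limma adjusted p = 0.0282).

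EDEM2 gave 12.1 and 11.8 FPKM in control medium, 7.88 and 9.71 without glucose and 10 without glutamine. All 3 deprived libraries lie below both controls, and the pair without glucose is the most widely spread of the members. EDEM2 fell by 0.41 ± 0.09 without glucose (limma adjusted p = 0.00551). This call was lost without control replicate 1 (-0.40, limma adjusted p = 0.0769), without control replicate 2 (-0.43, 0.0665), with scaling to the same total (-0.31, 0.071) and with no filter (-0.41, 0.122). Without glutamine it differed by -0.23 ± 0.11 (95% interval -0.49 to 0.02; limma adjusted p = 0.11), and the test was passed when either glucose-free library was left out (limma adjusted p = 0.0323 and 0.0335).

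EDEM3 was at 14.9 and 15.5 FPKM in control medium, 13 and 12.7 without glucose and 12.5 without glutamine, with both deprivations below control. It fell by 0.23 ± 0.04 without glucose (limma adjusted p = 0.00274) and by 0.26 ± 0.05 without glutamine (limma adjusted p = 0.00384). Scaling to the same total gave -0.12 and 0.03, neither called, and without control replicate 2 the adjusted p-values were 0.0532 and 0.0518 (limma). The FPKM ratio of EDEM1 to EDEM3, free of scaling, was 0.907 and 0.876 in control medium, 1.13 and 1.08 without glucose and 1.33 without glutamine. It was higher in every deprived library than in either control, and highest without glutamine.

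DNAJB9 encodes ERdj4, a DnaJ partner of BiP that binds misfolded proteins and holds the UPR sensor IRE1 (encoded by ERN1) in check. It was at 7.49 and 7.64 FPKM in control medium, 12.5 and 13.2 without glucose and 6.22 without glutamine. Glucose-free libraries stand highest and the glutamine-free library lowest, with no overlap. DNAJB9 rose by 0.69 ± 0.05 without glucose (limma adjusted p = 4.2e-05). Without glutamine it fell by 0.25 ± 0.07 (limma adjusted p = 0.0157). The fall was not called without control replicate 1 (limma adjusted p = 0.0723) or 2 (0.094), and the value was -0.10, 0.03 and -0.09 under the other scalings. Its ratio to SEL1L stayed between 0.88 and 0.997 in all 5 libraries.

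Exons of DNAJB9, DERL1, DERL2, EDEM1 and OS9 also share bases with genes on the opposite strand, at most 13.5% of a member's exon length, with OS9 and AC025165.2. The strand setting of the counting is not given in the sources used here, so reads in shared bases cannot be assigned. AC025165.2 was at most 0.117 FPKM as deposited and AC026202.3, the partner of EDEM1, at most 0.333. THAP5, which shares 6.45% of DNAJB9's exon bases, was at 14.3 and 14.8 FPKM in control medium, 15.7 and 15.9 without glucose and 11.3 without glutamine. PNPLA8, sharing 3.49% of DNAJB9, was at 4.46 and 4.44, 6.21 and 6.74, and 4.03 in the same order. TBC1D31, sharing 5.59% of DERL1, was at 5.25 and 5.2, 4.89 and 4.45, and 5.24. MIS12, sharing 4.71% of DERL2, was at 15.2 and 15.8 in control medium, 16.6 and 17.9 without glucose and 12.2 without glutamine.

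**Figure D3:**
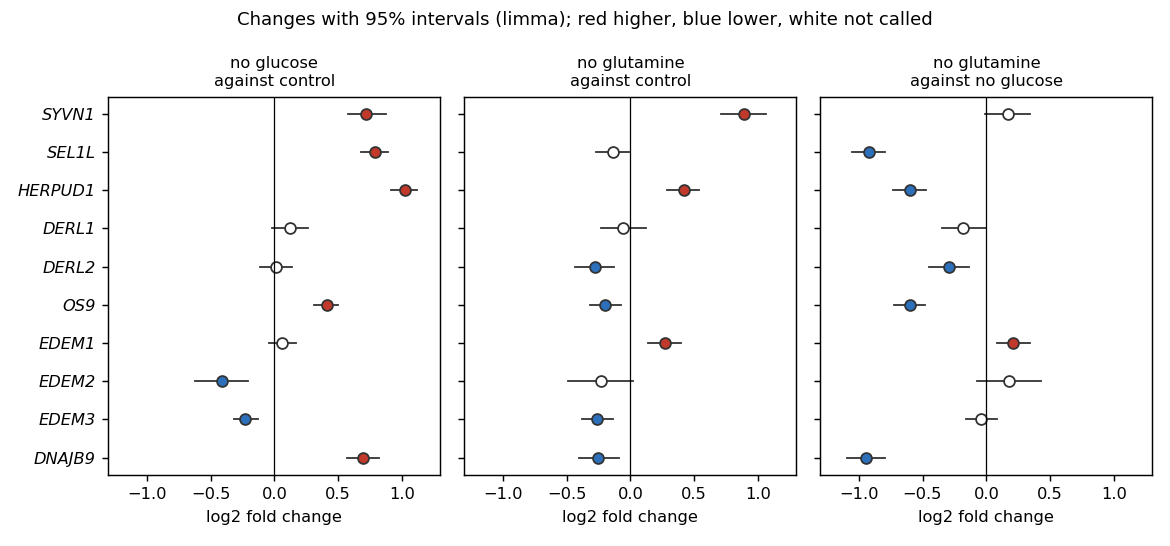
Log2 fold change of each gene with its 95% interval from limma, for glucose-free against control, glutamine-free against control and glutamine-free against glucose-free medium; red is higher, blue lower and white not called. SYVN1 and HERPUD1 are red in both comparisons with control; the 4 blue points of the middle panel are not called under other scalings, and those of EDEM3, OS9 and DNAJB9 become positive when scaled to the same total.

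Set directly against each other, the deprivations differed in 6 of the 10 members: 1 was higher and 5 were lower without glutamine than without glucose. Over all genes, 22.5% were called higher and 22% lower, and the medians were -0.23 for the members and 0.01 for all genes. Among genes of 5 to 30 FPKM, 21.3% were higher and 35.3% lower, with a median of -0.08. The members' median was -0.13, -0.06 and -0.16 with values as deposited, scaled to the same total or scaled to the upper quartile, against all-gene medians of 0.11, 0.19 and 0.08. Both sides have dialyzed serum, and 1 side is a single library, assumed to vary like the others. DNAJB9 (-0.94 ± 0.07, limma adjusted p = 8.38e-05) and SEL1L (-0.92 ± 0.06, limma adjusted p = 5.63e-05) differed most, and both calls held under all alternatives run. HERPUD1 and OS9 were lower by the same amount (-0.60 ± 0.05 each; limma adjusted p = 0.000194 and 0.000163), calls that were lost with scaling to the same total (-0.41 for each, limma adjusted p = 0.0914 and 0.104). DERL2 was lower (-0.29 ± 0.07, limma adjusted p = 0.00877), though not called with values as deposited (-0.19) or scaled to the same total (-0.12).

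EDEM1 was the 1 member called higher without glutamine than without glucose under the scaling used here (0.21 ± 0.06, limma adjusted p = 0.0187). The difference was 0.32, 0.40 and 0.29 with values as deposited, scaled to the same total (not called, limma adjusted p = 0.102) and scaled to the upper quartile. Its call was lost without control replicate 1 (limma adjusted p = 0.0717) or 2 (0.0742) and in 5 further alternatives. SYVN1 differed by 0.17 ± 0.08 (95% interval -0.01 to 0.34; limma adjusted p = 0.114), and passed with values as deposited (0.27, 0.0305) and with upper-quartile scaling (0.24, 0.0403). EDEM2 (0.18 ± 0.11, limma adjusted p = 0.22), EDEM3 (-0.04, interval -0.16 to 0.08) and DERL1 (-0.18 ± 0.08, limma adjusted p = 0.0948) did not pass. EDEM2 passed without replicate 2 of glucose deprivation (0.31, limma adjusted p = 0.03), and DERL1 without replicate 1 (-0.26, 0.0278). EDEM3 turned positive under each other scaling, and DERL1 reached 0.01 when scaled to the same total. With values as deposited 68.2% of all called genes were higher, and 85.5% and 62.5% after total and upper-quartile scaling, against 50.5% here.

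Summed over the 10 members, the scaled level was 103 and 104 FPKM in control medium, 130 and 133 without glucose and 102 without glutamine. The place of the last depends on the scaling. The library without glutamine was divided by 1.08, and the controls by 0.96 and 0.971. With values as deposited, its sum lay above those of both controls. FPKM is per length, so levels can be ranked between genes. OS9 led in every medium. SYVN1 was lowest in control medium and without glucose, and DERL2 was lowest without glutamine. HERPUD1 moved from the fifth to the second place without glucose, and to the third without glutamine. In control medium DERL1, SEL1L and DNAJB9 are neighbours (means 8.19, 7.78 and 7.56). The libraries of SEL1L overlap with those of DERL1 and of DNAJB9, while DERL1 lies above DNAJB9 without overlap. Without glucose there is overlap between EDEM1 and SEL1L (14.2 and 14.1), between DNAJB9 and EDEM3 (12.8 each) and between DERL1 and EDEM2 (9.01 and 8.8).

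Other ERAD genes gave no common direction. Of 73 found, 70 were tested, and without glucose 26 rose (37.1%), 22 fell (31.4%) and 22 were not called, with a median of 0.02, against 26.5% and 28.1% of all genes and 26.3% and 41.1% of genes of 5 to 30 FPKM. After DERL3, the largest rises were in the membrane ligase MARCHF6 (0.55 ± 0.06, limma adjusted p = 0.000191) and the reductase DNAJC10 (0.49 ± 0.05, 0.000208), which opens disulfides of substrates. The largest falls were in the ligase TMEM129 (-0.98 ± 0.06, limma adjusted p = 2.16e-05), the deubiquitinase YOD1 (-0.82 ± 0.04, 8.75e-06) and the cytosolic ligase STUB1 (-0.61 ± 0.05, 5.18e-05). VCP, the ATPase that extracts substrates, was at 106 and 109 FPKM in control medium, 70.1 and 73 without glucose and 68 without glutamine. VCP fell by 0.58 ± 0.04 and 0.65 ± 0.05 (limma adjusted p = 3.76e-05 and 7.75e-05), the latter not called when scaled to the same total. The ratio of SEL1L to VCP was 0.071 and 0.0735 in control medium, 0.203 and 0.192 without glucose and 0.103 without glutamine, higher in every deprived library than in control.

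Without glutamine 12 other ERAD genes rose (17.1%), 31 fell (44.3%) and 27 were not called, shares close to those of genes of 5 to 30 FPKM (18.2% and 45.7%). The median of -0.10 was 0.05, 0.19 and 0.06 under the other scalings. BAG6, which shields extracted substrates in the cytosol, rose by 0.61 ± 0.05 (limma adjusted p = 9.23e-05), the shuttle factor UBQLN2 by 0.53 ± 0.08 (0.000872) and MARCHF6 by 0.46 ± 0.07 (0.00135). The largest falls were in the BiP cofactor SDF2L1 (-0.92 ± 0.09, limma adjusted p = 0.000128) and in SELENOK (-0.75 ± 0.06, 8.03e-05) and UBXN8 (-0.72 ± 0.06, 0.000103), which tie VCP to the membrane. These 3 falls were called under every scaling. DNAJC10, which rose without glucose, fell without glutamine (-0.41 ± 0.07, limma adjusted p = 0.00151), though not when scaled to the same total (-0.14).

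**Figure D4:**
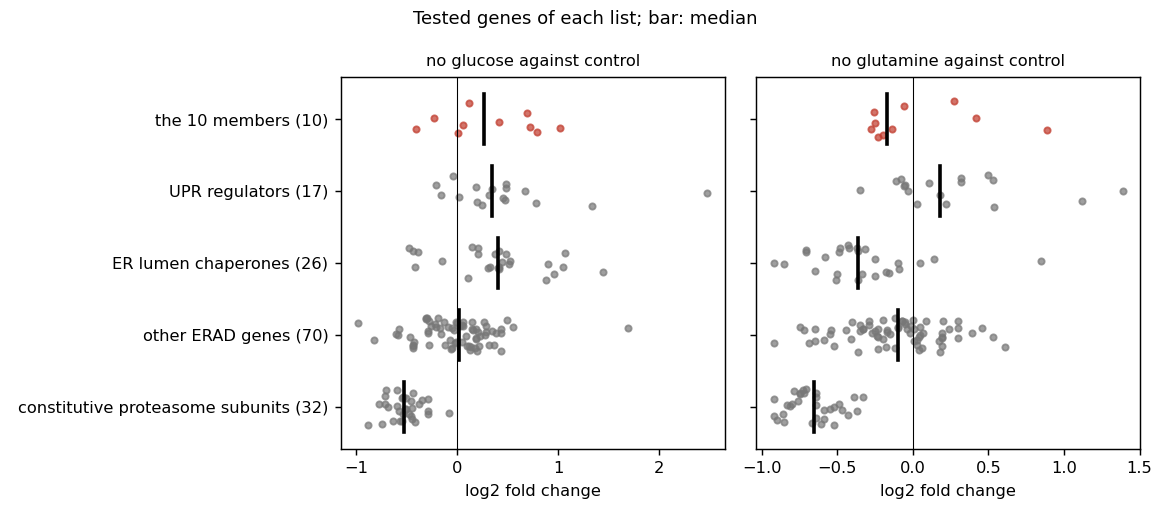
Log2 fold change of each tested gene in 5 lists, each point 1 gene, with a bar at the list's median and the number tested in parentheses; left without glucose, right without glutamine, both against control. Medians without glucose are 0.26 for the 10 members, 0.35 for UPR regulators, 0.40 for ER lumen chaperones, 0.02 for other ERAD genes and -0.53 for proteasome subunits; on the right they are -0.17, 0.18, -0.37, -0.10 and -0.66, of which those of the members (scaled to the same total) and of the other ERAD genes (under each other scaling) turn positive.

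The listed regulators of the UPR were mostly higher in glucose-free medium. Of 17 UPR regulators tested of 20, 13 rose, 2 fell and 2 were not called without glucose, with a median of 0.35, against 26.5% higher and 28.1% lower among all genes. Without glutamine 8 rose and 1 fell, with a median of 0.18, against 24.7% and 26.2%. DDIT3, which encodes the stress factor CHOP, rose by 2.48 ± 0.05 and 1.39 ± 0.06 (limma adjusted p = 3.64e-07 and 2.72e-05). XBP1 was at 44.3 and 45.3 FPKM in control medium, 59.8 and 64.7 without glucose and 52.3 without glutamine, rises of 0.47 ± 0.05 (limma adjusted p = 0.000161) and 0.22 ± 0.06 (0.0171). The latter was lost without control replicate 1 or 2 and in 2 further alternatives, with an adjusted p of at most 0.123 (limma). Gene-level FPKM does not separate spliced from unspliced XBP1. ERN1 was low, at 1.61 and 1.63 FPKM in control medium, 1.88 and 2.1 without glucose and 2.71 without glutamine. Its changes are therefore understated on the log2(FPKM + 1) scale.

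ATF6 rose without glucose (0.35 ± 0.05, limma adjusted p = 0.000536) and differed by 0.03 ± 0.06 without glutamine (0.735). ERN1 rose without glutamine by 0.50 ± 0.07 (limma adjusted p = 0.000974) and without glucose by 0.19 ± 0.06 (0.0311), the latter lost without either control, without replicate 2 of glucose deprivation and in 4 further alternatives, with an adjusted p of at most 0.155 (limma). EIF2AK3, the gene of the kinase PERK, rose by 0.48 ± 0.05 without glucose and fell by 0.35 ± 0.06 without glutamine (limma adjusted p = 0.000142 and 0.00196), the fall not being called when scaled to the same total. PPP1R15A, a phosphatase subunit that reverses PERK signalling, rose in both (1.34 ± 0.04 and 0.54 ± 0.05), as did the ER-bound factor CREB3L2 (0.78 ± 0.05 and 1.12 ± 0.06). The 2 regulators that fell without glucose were NFYB and NFYA, subunits of the factor that binds CCAAT (-0.21 and -0.16), calls lost under upper-quartile scaling and without either control.

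Among chaperones of the ER lumen, 19 of 26 rose and 5 fell without glucose, with a median of 0.40. Without glutamine 1 rose and 20 fell, with a median of -0.37, while scaled to the same total 1 was called higher and 2 lower. The same shares of all genes apply (26.5% and 28.1% without glucose, 24.7% and 26.2% without glutamine). Among genes of 5 to 30 FPKM the shares were 26.3% and 41.1% without glucose, and 18.2% and 45.7% without glutamine. Many of these chaperones lie outside that range, most of them above it. HSPA5, which encodes BiP, was at 80.4 and 77.6 FPKM in control medium, 177 and 158 without glucose and 66.1 without glutamine. HSPA5 rose by 1.07 ± 0.06 (limma adjusted p = 1.26e-05), and its fall without glutamine of 0.25 ± 0.07 (0.0213) was lost under all 3 other scalings and without either control, with values up to 0.06. The ratio of HSPA5 to HERPUD1 was 8.06 and 8.22 in control medium, 8.59 and 7.63 without glucose and 4.97 without glutamine. The glucose-free ratios span the control values, and the glutamine-free ratio is the lowest. PDIA4 and HSP90B1 rose by 1.45 ± 0.04 and 1.05 ± 0.05 without glucose. The largest falls without glucose were in FKBP7 (-0.48 ± 0.08, limma adjusted p = 0.00139), FKBP14 (-0.44 ± 0.05, 0.000206) and SDF2 (-0.42 ± 0.06, 0.000542). Those of FKBP14 and SDF2 were not called when scaled to the same total. MANF fell by 0.85 ± 0.06 without glutamine, a call kept under every scaling.

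At the end of the route stands the proteasome. All 32 constitutive subunits had negative log2 fold changes in both deprivations (-0.88 to -0.08 without glucose, -0.92 to -0.33 without glutamine). Of these 31 were called lower without glucose (median -0.53) and 32 without glutamine (median -0.66), against 28.1% and 26.2% of all genes. Among genes of 5 to 30 FPKM, a range that many subunits exceed, 41.1% and 45.7% were lower. Scaled to the same total, 19 and 9 subunits were called lower. PSMD1 was at 49.7 and 52.1 FPKM in control medium, 26.8 and 27.5 without glucose and 27.6 without glutamine, falls of 0.88 ± 0.04 and 0.86 ± 0.05 (limma adjusted p = 8.41e-06 and 3.57e-05). PSMC2 fell by 0.71 ± 0.05 and 0.92 ± 0.06 (limma adjusted p = 2.99e-05 and 4.28e-05). The single subunit not called without glucose was PSMD4 (-0.08 ± 0.04, limma adjusted p = 0.182), a receptor for ubiquitin chains.

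The genes most like 3 members across the 5 libraries were ranked by the root mean square difference of centred log2 levels, among the 4471 or 4472 candidates whose mean reached 10 FPKM. Among the 5 nearest to HERPUD1 were AC005192.1 (0.0197), CIRBP (0.0602), PCED1A (0.0639) and CEBPG (0.072), with log2 fold changes of 0.87 to 1.00 without glucose and 0.27 to 0.39 without glutamine. Nearest to SEL1L were MND1 (0.0186), SGF29 (0.0423), CEP57 (0.0569), BRCA2 (0.0685) and MTHFD2 (0.0704). For DNAJB9 they were SNHG29 (0.0233), C12orf57 (0.0421), EIF2A (0.044), AL132780.3 (0.0448) and MND1 (0.0524). DNAJB9, SYVN1, DERL1 and DERL2 had means below 10 FPKM, so they were not candidates and could not appear. None of the members that were candidates was among the 5 nearest of HERPUD1, SEL1L or DNAJB9. With 5 libraries in 3 media, likeness describes these libraries only.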

How the data were processed

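The values deposited by the authors, 1 column per library, were taken to be FPKM and cover 59609 gene names. The unit is given in no header and was inferred from the values. HISAT2 2.0.5, StringTie and hg38 were used, per the submitters' processing notes; annotation, strand setting and StringTie version are not given in the sources used here. Per the labels' protocols, ribosomal RNA was removed from total RNA and both ends of fragments were read for 150 bases. For glutamine deprivation, 1 column is headed as glucose deprivation and could not be mapped; it was not used, so 5 of 6 labelled libraries entered. Low values of single-exon genes of up to 20 reads came out as whole reads, within 0.05, for 94.9% to 95.5% of genes, and depth was inferred from these steps.

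FPKM were divided by trimmed-mean factors (trim of 30% of ratios and 5% of abundances; factors 0.96 to 1.08), and the 16600 genes that reached 1 scaled FPKM in any library were fitted on log2(FPKM + 1) with limma 3.58.1 in R 4.3.3. The fit used 1 coefficient per medium, 2 residual degrees of freedom and a variance trend over inferred reads, two-sided, with Benjamini-Hochberg adjustment over all genes tested and a threshold of 0.05. The fit was tested on simulated data, where the share of false calls lay above the threshold in each comparison, most in glutamine deprivation against control.

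The 10 members and all lists were chosen with earlier results of these data known. The rule for other named genes was, per list and comparison, up to 3 called genes of largest change in each direction, of which the text gives the main ones, and always XBP1, ATF6, ERN1, HSPA5 and VCP. In the ranking by likeness, 1 gene is not reported here. Lists were of other ERAD genes, UPR regulators, ER lumen chaperones, constitutive proteasome subunits and cell type markers. There were 17 alternatives, covering scaling, pseudocount, filter, variance trend, robust fitting, groups fitted, a replicate block and single libraries left out.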

Additional observations from a re-analysis of the deposited data

How the results depend on the processing

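Of the member values recomputed under the 17 alternatives, 418 kept direction and side of the threshold, 42 lost the call, 12 gained it and 15 changed sign. Causes were not tested. The 418 include values called in neither fit. Altering only the variance trend, robust option, filter or groups fitted leaves the log2 fold change as it was, so its sign cannot change. For glucose deprivation against control, fitting only the 2 groups is the same fit as leaving out the glutamine-free library. Members lower without glucose numbered 2, against 0 scaled to the same total, 1 with no filter and 0 to 2 with a library left out. Members lower without glutamine numbered 4, against 0 as deposited, 0 scaled to the same total, 0 with upper-quartile scaling, 2 with no filter and 0 to 5 with a library left out. In the direct comparison members higher numbered 1, against 3 as deposited, 0 scaled to the same total, 2 with upper-quartile scaling, 0 with no filter, 0 without the variance trend, 0 with only the 2 groups compared and 0 to 2 with a library left out. Members lower numbered 5 there, against 2 scaled to the same total. All genes called were 9077 without glucose (5495 scaled to the same total, 5419 with a mean of at least 5 FPKM, 5688 to 9090 with a library left out), 8462 without glutamine (5271 with a mean of at least 5 FPKM, 5486 to 8428 with a library left out) and 7380 in the direct comparison (4264 scaled to the same total, 4619 with a mean of at least 5 FPKM). Fewer genes are tested under the stricter filter.

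The sign changed for DERL2 without glucose (-0.04 without control replicate 1). Without glutamine it changed for SEL1L (0.01, 0.14 and 0.02 as deposited, scaled to the same total and to the upper quartile), DERL1 (0.09, 0.23 and 0.10), and, scaled to the same total, EDEM2 (0.06), EDEM3 (0.03), OS9 (0.11) and DNAJB9 (0.03). In the direct comparison it changed for EDEM3 (0.07, 0.15 and 0.04) and DERL1 (0.01 scaled to the same total). No value with a changed sign was called.

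The labels do not say that replicate numbers mark a shared culture, and the deviations of same-numbered libraries had a correlation of -0.0218 over 16600 genes. With a replicate block 5 members were higher and 2 lower without glucose, 3 higher and 2 lower without glutamine, and 0 higher and 5 lower in the direct comparison, and 8806, 7522 and 6323 genes were called.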

Other observations

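Some ERAD genes outside the 10 differed between the deprivations. Of 70 tested, 13 (18.6%) were higher and 30 (42.9%) lower without glutamine than without glucose, against 22.5% and 22% of all genes and 21.3% and 35.3% of genes of 5 to 30 FPKM, with a median of -0.12 that was 0.00, 0.09 and -0.03 under the other scalings. TMEM129, the ligase gene that fell without glucose, was higher by 1.05 ± 0.08 (limma adjusted p = 0.000102), and SGTA, a cochaperone of the BAG6 route, by 0.52 ± 0.05 (0.000313). The glycoprotein-binding ligase subunit FBXO2 was at 0.696 and 0.585 FPKM in control medium, 0.364 and 0.322 without glucose and 1.02 without glutamine. It passed the filter on low values only through the glutamine-free library, so no test is given for it. FBXO2 is still counted in the 13 and the 70 above. DERL3 differed by -1.51 ± 0.09 (limma adjusted p = 4.57e-05), SDF2L1 by -1.13 ± 0.09 and DNAJC10 by -0.90 ± 0.07.

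The chaperone gene FKBP11 was called higher without glutamine than in control medium (0.85 ± 0.09, limma adjusted p = 0.000183), as the 1 gene of its list under the scaling used here; 3 were called with values as deposited and 3 with upper-quartile scaling. It was at 1.67 and 1.52 FPKM in control medium, 1.91 and 1.85 without glucose and 3.68 without glutamine.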
